A study of Mus musculus with 6 samples.

Results

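The probe sets described here read the subunits of the constitutive proteasome in mouse lung, from 3 strains with and without cigarette smoke. They were chosen by name: every probe set with a single gene symbol that starts with Psma, Psmb, Psmc, Psmd or Psme followed by a digit, leaving out the immunoproteasome subunits Psmb8, Psmb9 and Psmb10. This took 50 of the 12488 probe sets on the array, for 39 genes, of which 37 encode subunits, activators or assembly chaperones. The letters also took Psmc3ip, a partner of meiotic recombination proteins, and Psme3ip1, which binds the activator Psme3, and neither is a subunit. Of the 42 that could be tested, 0 passed the test for a smoke effect, which 0.0403% of all probe sets passed. The signal of the probe set for Psmb6, a catalytic subunit, was 3.75-fold lower in DBA than in C57 and 3.86-fold higher in ICR than in DBA. It was the only proteasome probe set that passed a test between strains. In each of these comparisons it made 1 of 42, or 2.38%, against 1.73% and 1.17% of all probe sets. Without scaling between arrays it passed in neither.

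The proteasome breaks down proteins that carry ubiquitin chains. Its core particle is a barrel of stacked alpha and beta rings, in which Psmb6, Psmb7 and Psmb5 cut peptide bonds after acidic, basic and hydrophobic residues respectively, and cells exposed to interferon exchange these for Psmb9, Psmb10 and Psmb8. The regulatory particle on top of it has a base, whose ATPases unfold the protein and thread it in, and a lid, which takes the ubiquitin chain off, while the Psme activators open the barrel without ATP. When proteasome activity falls short, the transcription factor Nfe2l1 raises subunit genes together through antioxidant response elements, and Nfe2l2, the main regulator of the response to oxidants such as those in smoke, binds the same kind of element.

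The groups were lungs of control and smoked mice of the strains named C57, DBA and ICR in the labels, and the smoked mice received 3 cigarettes a day on 5 days a week for 4 weeks. Each group was 1 Affymetrix array, its title numbers a single mouse, and the labels name no substrain, age, sex or sham exposure. The series title speaks of resistance and sensitivity to smoke without assigning either to a strain. The 3 strains are therefore the replicates for smoke, and the control and smoked arrays of a strain are its 2 values in the comparison of strains. The labels do not say whether the mice of a strain shared a genotype. Within a pair, a difference with smoke cannot be told apart from a difference between mice.

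The deposited intensity differed between arrays as a whole, so differences are given after a log2 transformation and quantile normalization, and probe sets with a low mean were not tested. Median intensity over all probe sets was 52.2 to 84.8 on 5 arrays and 25.9 on the ICR smoked array. That array also had the highest ratio of 3' to 5' signal for beta-actin, 4.75 against 1.46 to 2.75 on the others. The 4 lung markers measured were high on every array, with Sftpb, a surfactant protein, the lowest of them at 1113 or more. Neutrophil markers summed to 16840 on the DBA control array against 983 to 2893 elsewhere, liver markers to 5413 on the DBA smoked array against 70.9 to 836, and skeletal muscle markers to 5587 and 3899 on the C57 arrays against 78.1 to 735. These are whole-lung RNA samples, in which fewer cells of a type and less RNA per cell cannot be told apart.

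Of the 50 probe sets, 42 passed the filter, a normalized mean above 5.34, for 36 genes. The probe sets just above it were one of the 3 for Psmd11 at 5.65 and Psmd10 at 6.10, and those just below were Psmc3ip at 4.49 and one for Psmb4 at 4.42. The 8 that did not pass had intensities of 0.295 to 25.4. They were the only probe sets for Psmc4, an ATPase, Psmd2, a scaffold of the base, and Psmc3ip, so nothing is said of these genes, and they were further probe sets of Psmb1, Psmb4, Psmc5 and Psme1. The second activator gene, Psme2, was not included because its 2 probe sets each carry a second symbol.

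The promoters of 2 catalytic subunits, Psmb6 and Psmb5, are shown. They were picked after the differences of Psmb6 between strains and of Psmb5 between probe sets were seen. They are the 250 bases before the annotated start of each gene, from RefSeq on GRCm38.p6, written 5′ to 3′ on the strand of the gene. Capitals mark the letters TGACNNNGC, a core of the antioxidant response element searched on both strands (GCNNNGTCA on the other). The Psmb6 sequence is chr11:70525107-70525356 on the plus strand and its match begins at base -9, and the Psmb5 sequence is chr14:54617996-54618245 on the minus strand with a match at base -47.
Psmb6: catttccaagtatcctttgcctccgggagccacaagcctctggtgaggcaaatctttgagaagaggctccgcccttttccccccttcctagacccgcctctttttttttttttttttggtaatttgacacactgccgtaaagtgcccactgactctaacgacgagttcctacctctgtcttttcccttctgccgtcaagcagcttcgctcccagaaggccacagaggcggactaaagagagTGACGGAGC
Psmb5: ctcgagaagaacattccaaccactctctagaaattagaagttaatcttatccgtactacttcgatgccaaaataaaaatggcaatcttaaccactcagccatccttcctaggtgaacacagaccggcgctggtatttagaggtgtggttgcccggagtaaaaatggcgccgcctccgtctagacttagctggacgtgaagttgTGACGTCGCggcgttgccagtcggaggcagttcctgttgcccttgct
Both matches lie on the strand of the gene. In the full window of 300 bases, which runs 50 bases past the start, these letters were found for 6 of the 33 member genes in the table, or 18.2%, namely Psmb5, Psmb6, Psmc6, Psmd12, Psmd9 and Psme4. Over all 27025 genes in the table the share was 14%. A match is a description of the letters only. The sequences are those of the reference genome, and no sequences of the strains were compared. The part of the promoters in the differences between strains was not tested.

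The first comparison asked what 4 weeks of smoke did to proteasome transcripts in all 3 strains. Of the 42 probe sets tested, 0 passed limma's test with Benjamini-Hochberg adjustment over all 7453 probe sets, where 0.0403% of all probe sets passed, and 0 had an unadjusted p under 0.05, against 1.64% of all. The fitted differences, smoked minus control, ran from -0.29 for Psma1 to 0.34 for Psmd9 on the log2 scale, with 20 above 0 and 22 below. Their median was -0.0048, beside 0.0060 over all probe sets, and it ranged from -0.09 without the C57 pair to 0.07 without the ICR pair. The differences of the proteasome probe sets had an SD of 0.14 among themselves, against 0.23 among all. The proteasome probe sets were brighter, with a median normalized level of 8.34 against 7.19 for all, and no comparison at equal level was made. A difference at least as large as that of Psmd9 was found in 11.1% of all probe sets.

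A p that misses the threshold does not show that smoke had no effect on these genes. The median 95% interval of a proteasome probe set reached 0.44 to either side of its estimate. In simulated data of this design, with 100 probe sets changed at each size, 78% of 2-fold and 99% of 4-fold changes were recovered. That run also called 22 unchanged probe sets. In the data themselves only 3 probe sets passed for smoke, which makes the adjusted threshold stricter than in the simulation. The recovered shares therefore do not say how many changes of these sizes would be found here. The sign was the same in all 3 strains for 6 of the 42 probe sets, 2 higher and 4 lower with smoke, or 14.3%. Over all probe sets the share was 17.6%, with 9.86% higher and 7.77% lower. The 2 higher were Psmd9 and Psmd12, and the 4 lower were Psma4, Psmb2, Psmd6 and Psme3.

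**Figure D1:**
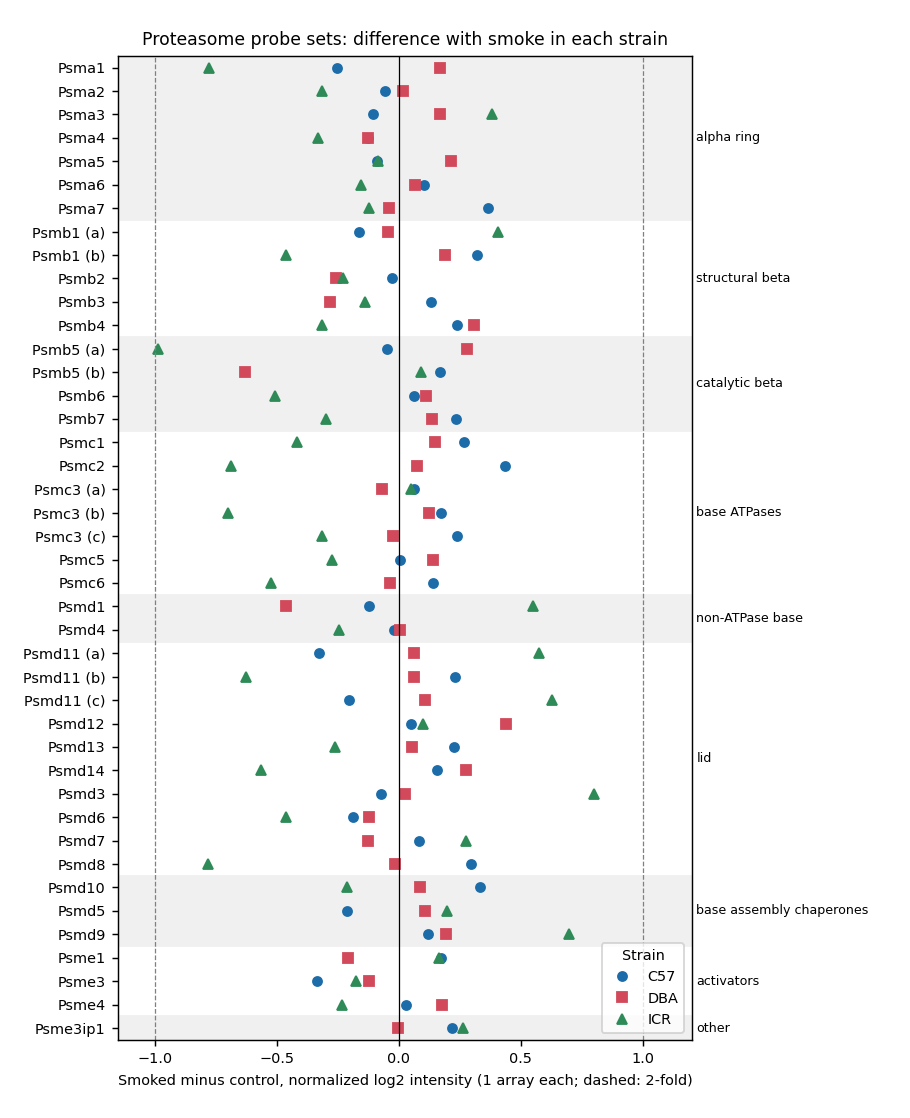
Smoked minus control difference of each of the 42 tested proteasome probe sets (horizontal axis, normalized log2 intensity, 1 array in each group) in C57 (circles), DBA (squares) and ICR (triangles), ordered by role, with dashed lines at 2-fold. No point lies beyond the dashed lines, and the ICR triangles spread more widely (SD 0.44) than the C57 and DBA points (SD 0.19 and 0.20). Over all tested probe sets the SD was also widest in ICR, at 0.54, against 0.34 in C57 and 0.46 in DBA.

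Among the catalytic subunits the smoke differences were small in C57 and DBA, apart from one of the probe sets for Psmb5, and mostly below 0 in ICR. Deposited intensity of Psmb7, which cuts after basic residues, was 326 and 368 in C57, 271 and 368 in DBA and 365 and 150.1 in ICR, control before smoked. Median intensity of the whole ICR smoked array was lower too, and after normalization the differences were 0.23, 0.14 and -0.30. Psmb6, which cuts after acidic residues, read 464 and 459 in C57, 113 and 151 in DBA and 441 and 158 in ICR. Its smoked and control arrays differed by 0.06, 0.11 and -0.51 after normalization, with a shared difference of -0.11 (SE 0.21, n = 3 pairs). Within each strain the pair lay far closer together than the DBA arrays lay to the others.

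Psmb5, the chymotrypsin-like subunit and the main target of proteasome inhibitor drugs, was read by 2 probe sets that did not behave alike. The brighter, a, had intensities of 495 and 449 in C57, 343 and 517 in DBA and 443 and 111 in ICR. The fainter, b, had 62.1 and 71.6, 152 and 120.0, and 55.5 and 29.8 in the same order. With smoke, a differed by -0.05, 0.28 and -0.99 in C57, DBA and ICR, and b by 0.17, -0.63 and 0.09. They pointed opposite ways in every strain, and the shared differences were -0.25 (SE 0.25) and -0.12 (SE 0.24). Leaving out the ICR pair turned the value of a to 0.12. In the array maker's naming, the identifier of a marks probes that match more than 1 transcript.

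**Figure D2:**
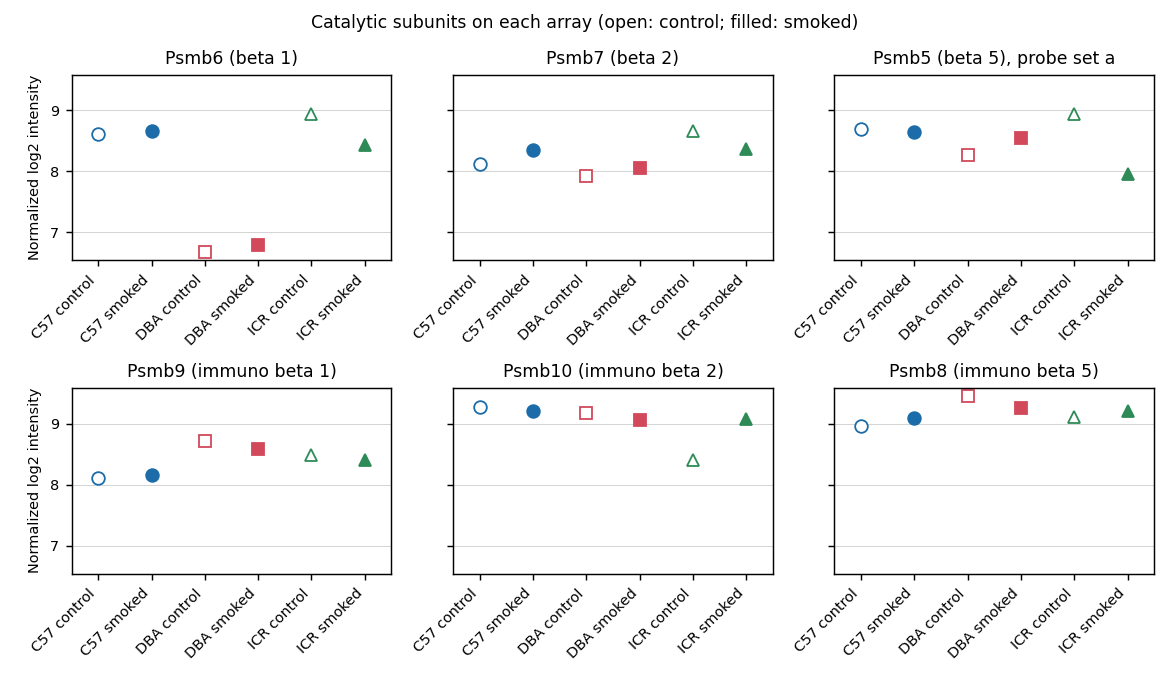
Normalized log2 intensity (vertical axis, shared by all panels) on each of the 6 arrays for the catalytic subunits Psmb6, Psmb7 and Psmb5 (upper row) and for the immunoproteasome subunits that replace them, Psmb9, Psmb10 and Psmb8 (lower row), with control arrays open and smoked arrays filled. Psmb6 stands at 6.68 and 6.79 on the DBA arrays and at 8.43 or above on the 4 others, and heights are compared within a panel only.

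The alpha ring, which forms the gate of the barrel, had 7 probe sets, 1 for each of Psma1 to Psma7. Their shared smoke differences had a median of 0.0039 and an SD of 0.15, with 4 above 0 and 3 below. Psma1 was the lowest of all proteasome probe sets, with normalized values of 7.25 and 7.0 in C57, 6.90 and 7.07 in DBA and 7.68 and 6.90 in ICR. Its smoked array was the lower one in C57 and ICR and the higher one in DBA, and the shared difference of -0.29 (SE 0.23) rested mostly on the ICR pair. Psma4 read 9.03 and 8.90, 8.77 and 8.64, and 9.04 and 8.71, lower on the smoked array each time, with a shared difference of -0.19 (SE 0.17). Psma6 held the steadiest level of the tested proteasome probe sets, with an SD of 0.11 over the 6 arrays.

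The structural beta subunits Psmb1, Psmb2, Psmb3 and Psmb4 complete the inner rings without cutting. Their 5 tested probe sets had a median smoke difference of 0.02, from -0.17 for Psmb2 to 0.08 for Psmb4. The smoked array was lower for Psmb2 in every strain, by 0.03, 0.26 and 0.23, and the shared difference did not pass (SE 0.18). Psmb3 and Psmb4 moved between strains without a common sign.

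In the base of the regulatory particle, the ATPases Psmc1, Psmc2, Psmc3, Psmc5 and Psmc6 had 7 tested probe sets with a median smoke difference of -0.04, from -0.14 for Psmc6 to 0.02 for a probe set of Psmc3. All 7 lay above 0 in C57, 4 did so in DBA, and 1 in ICR, where their median was -0.42. Psmc2 read 8.41 and 8.84 in C57, 8.02 and 8.10 in DBA and 8.89 and 8.20 in ICR. Its ICR control array was the highest of the 6 and its 2 DBA arrays were the lowest. Psmc6 had 9.42 and 9.56, 9.65 and 9.62, and 10.01 and 9.48, again with the ICR control array highest. Of the other base subunits, Psmd1, a scaffold, differed by -0.12, -0.46 and 0.55 in C57, DBA and ICR, and Psmd4, a receptor for ubiquitin chains, by -0.02, 0.0058 and -0.24.

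The lid gave 10 tested probe sets, and they spread more than the ATPases, with an SD of 0.17 around a median of 0.04. Psmd3, a structural subunit, read 8.95 and 8.88 in C57, 8.87 and 8.90 in DBA and 7.67 and 8.47 in ICR. The ICR control array was the lowest by far, and the shared smoke difference of 0.25 (SE 0.22) became -0.02 without the ICR pair. Psmd12, a further structural subunit, had 7.54 and 7.59, 7.20 and 7.64, and 7.94 and 8.04, with the smoked array higher in each strain and a shared difference of 0.20 (SE 0.20). Psmd6, also structural, had 8.56 and 8.37, 8.38 and 8.26, and 9.01 and 8.55, with the smoked array lower in each strain and a shared difference of -0.26 (SE 0.18). Both directions thus occurred inside one subcomplex, and neither passed the test.

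The enzyme of the lid is Psmd14, which cuts ubiquitin chains from the substrate with Psmd7 as its partner. Psmd14 read 7.20 and 7.36 in C57, 7.32 and 7.60 in DBA and 8.03 and 7.47 in ICR. Only its ICR control array stood apart, and the shared difference was -0.04 (SE 0.23). Psmd7 had one of the smallest spreads, an SD of 0.12 over the 6 arrays. Psmd8, a small structural subunit, read 7.63 and 7.93, 7.90 and 7.89, and 8.42 and 7.64, with the ICR control array again the highest. Psmd13 lay between 7.70 and 8.24 on all arrays.

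The chaperones that help assemble the base, Psmd5, Psmd9 and Psmd10, all had fitted smoke differences above 0, at 0.03, 0.34 and 0.07. Psmd9 was the highest of all proteasome probe sets, with values of 7.76 and 7.88 in C57, 7.69 and 7.88 in DBA and 7.31 and 8.01 in ICR. Its smoked array was higher in each strain, by 0.12, 0.19 and 0.70, so most of the shared difference (SE 0.20, adjusted p = 1 by limma with Benjamini-Hochberg adjustment) came from ICR. Over 12 alternative settings its difference ranged from 0.10 to 0.45 and it passed in none, at an adjusted p of 0.998 or more.

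Activators were read by Psme1, a subunit of the interferon-inducible cap, Psme3, its nuclear relative, and Psme4, a large single-chain activator. Psme1 had intensities of 823 and 861 in C57, 826 and 880.0 in DBA and 482 and 281 in ICR, with smoke differences after normalization of 0.17, -0.21 and 0.16. Psme3 read 284 and 214, 237 and 267, and 171 and 74.9, and differed by -0.33, -0.12 and -0.17. Psme4 read 301 and 296, 184 and 256, and 226 and 95.5, and differed by 0.03, 0.18 and -0.23. Psme3 alone had the same sign in the 3 strains, with a shared difference of -0.21 (SE 0.19). Psme3ip1, which binds Psme3 and is no subunit, lay at 0.16 (SE 0.19), from normalized values of 7.34 and 7.56, 7.49 and 7.48, and 7.59 and 7.85.

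Where several probe sets read 1 gene they often differed in sign. Of the 4 genes with several tested probe sets, Psmb1, Psmb5, Psmc3 and Psmd11, signs differed in 3 in C57, 3 in DBA and all 4 in ICR. For Psmb1, probe set a had values of 9.47 and 9.30, 9.16 and 9.11, and 9.10 and 9.51, and b had 8.44 and 8.76, 8.49 and 8.68, and 9.16 and 8.70. In C57 and DBA a was lower and b higher on the smoked array, and in ICR the order was turned. For Psmd11, a lid subunit that touches the core particle, a and c were higher on the ICR smoked array by 0.58 and 0.63 and b was lower by 0.63.

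The array values of Psmd11 were 5.65 and 5.33 in C57, 5.44 and 5.50 in DBA and 5.71 and 6.28 in ICR for a. Probe set b read 7.37 and 7.61, 7.55 and 7.61, and 8.15 and 7.53. Probe set c, with 9.62 and 9.41, 8.97 and 9.08, and 8.73 and 9.36, was highest on the C57 control array. Psmc3 gave 6.53 and 6.59, 6.18 and 6.11, and 6.52 and 6.57 for a, 7.52 and 7.69, 7.56 and 7.68, and 8.18 and 7.48 for b, and 8.33 and 8.57, 8.08 and 8.05, and 8.65 and 8.33 for c. For this ATPase the disagreement was smaller in C57, where all 3 were above 0. By the array maker's identifiers, a and c of Psmc3 and the probe sets of Psma3, Psmb4, Psmb7 and Psmd12 belong to families of similar sequences, so their signal may include related transcripts. The identifiers of Psmd9, Psmd11 probe set a and Psmc3 probe set b also carry a letter, r or i, that sets them apart from plain probe sets. What that letter means for their values was not tested.

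**Figure D3:**
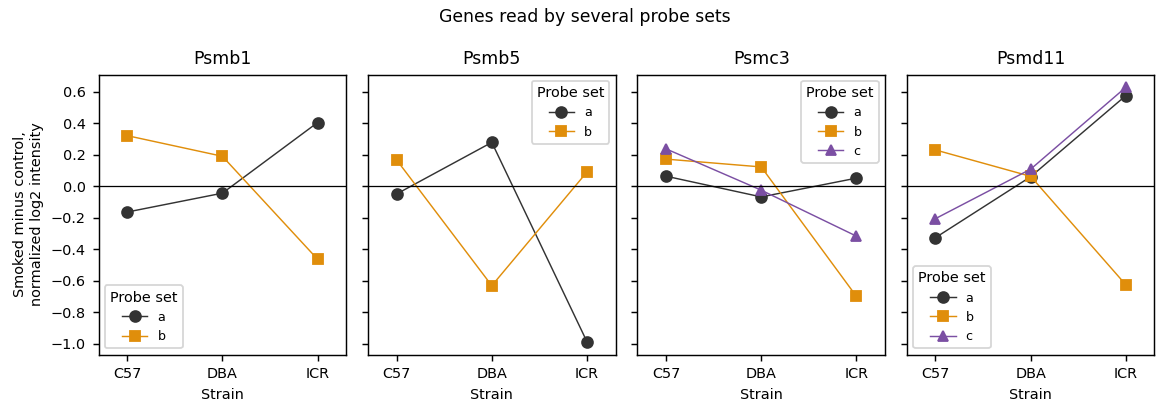
Smoked minus control difference (vertical axis, normalized log2 intensity) in each strain for the 4 genes with several tested probe sets, with 1 line for each probe set. Probe sets of 1 gene lie on both sides of 0, as in ICR, where those of Psmd11 lay at 0.58, -0.63 and 0.63.

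Within single strains, without a replicate and without a test, 0 of the 42 proteasome probe sets differed 2-fold between the smoked and the control array in C57, DBA or ICR. The shares over all probe sets were 1.21%, 3.05% and 6.48%. At 1.5-fold the counts were 0 in C57 (7.53% of all), 1 in DBA (9.73%) and 9 in ICR (25.2%), where 9 of 42 is 21.4%. The member in DBA was Psmb5 probe set b. In ICR 3 were higher (12.1% of all), Psmd3 at 0.80, Psmd9 at 0.70 and Psmd11 probe set c at 0.63, and 6 were lower (13.1% of all). The lower ones were Psmb5 probe set a at -0.99, Psmd8 and Psma1 at -0.78, Psmc3 probe set b at -0.70, Psmc2 at -0.69 and Psmd11 probe set b at -0.63.

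The proteasome probe sets as a list lay lower on the ICR smoked array than on the ICR control array, relative to all probe sets. Their median difference was -0.23, with 14 of 42 above 0, beside a median of 0.01 and 51% above 0 over all probe sets. In C57 the median was 0.07 with 26 above 0 (48.2% of all), and in DBA 0.06 with 26 above 0 (53.8% of all). By role, the ICR medians were -0.42 for the ATPases of the base, -0.40 for the catalytic subunits, -0.23 for the structural beta subunits, -0.17 for the activators, -0.15 for the alpha ring and -0.08 for the lid. They were 0.20 for the 3 assembly chaperones, 0.15 for the 2 other base subunits and 0.26 for Psme3ip1. The ICR pair is also the one whose smoked array had the lowest signal and the highest 3' to 5' ratio, whose part in these differences was not tested.

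Whether 1 strain responded unlike the others was fitted with an extra smoke term, and 0 proteasome probe sets passed for C57, DBA or ICR, against 0.134%, 0.711% and 0% of all probe sets. With no adjustment, 8 of 42, or 19%, had a p under 0.05 for ICR (14.3% of all probe sets), and 0 for C57 (3.01%) and DBA (3.94%). Those 8 were Psmb1 probe set b, Psmb5 probe set a, Psmc2, Psmc3 probe set b, Psmd8 and Psmd14 below 0 (7.85% of all), and Psmd1 and Psmd3 above 0 (6.47% of all). The extra term for ICR was -1.10 for Psmb5 probe set a (SE 0.31), -0.94 for Psmc2 (SE 0.31) and -0.92 for Psmd8 (SE 0.32). For C57 the largest were 0.74 for Psmc2, 0.69 for Psmd8 and -0.65 for Psmd11 probe set a, and for DBA 0.80 and -0.76 for probe sets a and b of Psmb5 and 0.68 for Psma1. The 3 fits use the same 6 arrays, so their values depend on one another. In simulated data the fit recovered 3% of 2-fold and 31% of 4-fold changes of the ICR response and called 7 unchanged probe sets. The noise of that simulation came from the fit of smoke and strain, not from the fit with the extra term. In the data 0% of all probe sets passed for ICR, which makes the adjusted threshold stricter. The recovered shares therefore do not say how many such changes would be found here.

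The comparison of strains separated 1 subunit from the rest. Psmb6, on chromosome 11, had normalized values of 8.61 and 8.67 on the C57 arrays, 6.68 and 6.79 on the DBA arrays and 8.93 and 8.43 on the ICR arrays. Both DBA arrays lay below the 4 others with no overlap. DBA was lower than C57 by a log2 difference of -1.91 (SE 0.25, 95% interval -2.48 to -1.34, 3.75-fold, n = 2 arrays each, adjusted p = 0.00633 by limma with Benjamini-Hochberg adjustment). The difference was -1.93 between control arrays and -1.88 between smoked arrays. ICR was higher than DBA by 1.95 (95% interval 1.38 to 2.52, 3.86-fold, limma adjusted p = 0.00858), with 2.26 between control and 1.64 between smoked arrays. The comparisons share the DBA arrays and are not independent. The high neutrophil signal was on the DBA control array, the high liver signal on the DBA smoked array and the high muscle signal on the C57 arrays, and the part of these markers in the Psmb6 difference was not tested. ICR and C57 differed by 0.04, with an interval from -0.53 to 0.61.

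No other proteasome probe set showed a step of this size. Psmb6 had an SD of 1.01 over the 6 arrays, the highest of the 42, followed by Psmd3 at 0.50 and Psmb2 at 0.45. The median SD was 0.25 for the proteasome probe sets and 0.29 for all tested probe sets. The proteasome probe sets were also brighter, and the spread was not compared at equal level. For 11 of 42, or 26.2%, the DBA arrays did not overlap the C57 and ICR arrays, against 20.8% of all. The closest in role, Psmb7 and Psmb5, had DBA minus C57 differences of -0.25 for Psmb7 and of -0.27 and 0.66 for probe sets a and b of Psmb5, none of which passed. A single probe set with 1 deposited value per array reads Psmb6, so the step has no second probe set beside it. The sequences of its probes were not examined, and the step is a difference in the signal of this probe set.

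The Psmb6 difference was called in 14 of 15 alternatives against C57 and in 12 of 15 for ICR against DBA. Without scaling between arrays it was -1.76 (adjusted p = 0.193) and 0.98 (adjusted p = 0.226). Without the ICR control array the ICR value was 1.65 (adjusted p = 0.0912), and without the ICR smoked array 2.25 (adjusted p = 0.0551). Over all alternatives the adjusted p ran from 3.67e-05 to 0.193 for DBA against C57 and from 3.95e-05 to 0.226 for ICR against DBA. On the deposited scale the ICR smoked array, the dimmest of the 6, read 158 and the DBA smoked array 151, so the separation of that pair depends on the scaling.

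Genes next to Psmb6 on chromosome 11 are given for comparison. The 10 nearest genes with a tested probe set, 5 on each side, were Rnasek, Alox12, Alox12e, Alox15 and Med11 on one side and Pld2, Chrne, Slc25a11, Rnf167 and Pfn1 on the other, and they were looked up after the values of Psmb6 were seen. Of these, 0 passed limma's test for DBA against C57 or for ICR against DBA, which 1.73% and 1.17% of all probe sets passed. A count of 0 among 10 is near those shares. Whether the step extends beyond Psmb6 was not tested. Med11, the nearest on one side and a subunit of the Mediator complex, differed by -0.37 and 0.38, and Pld2, a phospholipase on the other, by -0.38 and -0.11.

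DBA against C57 otherwise gave small differences that leaned low. Of 42 probe sets, 1, or 2.38%, passed, against 1.73% of all probe sets, or 0.859% for lower values only. With no adjustment 3 of the 42 had a p under 0.05 against 11.5% of all, namely Psmb6, Psmb2 and Psme4, all lower (5.46% of all). The median was -0.14, beside -0.03 for all, with 33 of the 42 below 0, against 4023 of all 7453. With 1 array left out it ranged from -0.20 to -0.14, and without scaling between arrays it was -0.01, beside 0.14 for all. Medians were -0.35 for the ATPases of the base, -0.29 for its 2 other subunits, -0.26 for the catalytic subunits, -0.23 for the assembly chaperones and -0.20 for the alpha ring. They were -0.12 for the activators, -0.09 for the structural beta subunits, -0.03 for the lid and 0.04 for Psme3ip1. After Psmb6 the lowest were Psme4 at -0.59, Psmc2 at -0.56 and Psmb2 at -0.55, and the highest were Psmb5 probe set b at 0.66, Psmd14 at 0.18, Psma7 at 0.15 and Psmc6 at 0.14. Scaling to a common median moved the median of the proteasome probe sets to -0.34, beside -0.18 for all, and turned Psma7 and Psmc6 below 0. Skeletal muscle markers were higher on the C57 arrays than on the others, and their part in these strain differences was not tested.

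ICR and C57 differed in no proteasome probe set that passed, while 2.29% of all probe sets did, and 4 of the 42 had an unadjusted p under 0.05 against 18% of all. The nearest to the threshold was Psmb2, with normalized values of 8.90 and 8.87 in C57, 8.46 and 8.20 in DBA and 8.04 and 7.81 in ICR. Both ICR arrays lay below both DBA arrays, and these below both C57 arrays, an order not counted over all probe sets. The ICR minus C57 difference was -0.96 (limma adjusted p = 0.0660), and it passed in 4 of 15 alternatives, with an adjusted p from 0.0295 to 0.317 over them. Psmd3 at -0.84 was low on the ICR control array, as given above. Psmd4, the ubiquitin receptor, read 9.41 and 9.39, 9.01 and 9.02, and 8.97 and 8.72, and differed by -0.56. The C57 arrays were the highest for it.

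At the other end of that comparison, Psma7 had 8.33 and 8.69 in C57, 8.69 and 8.65 in DBA and 9.13 and 9.01 in ICR. Both ICR arrays lay above the others, a pattern not counted over all probe sets, and the difference was 0.56. Psmd11 probe set a followed at 0.51, Psmd14 at 0.47 and Psmd12 at 0.42. The lowest after Psmd4 was Psmd11 probe set c at -0.46, so the probe sets of Psmd11 stood at both ends. Without scaling between arrays Psma7, Psmd14, Psmd12 and Psmd11 probe set a turned below 0, on a scale where the median of all probe sets was itself -0.73. The median of the proteasome probe sets was -0.0032, beside -0.02 for all. Its sign depended on single arrays, at -0.11 when the ICR control array was left out and 0.17 when the smoked one was, and at -0.04 and 0.08 for the C57 arrays in the same order. Without scaling it was -0.78.

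ICR against DBA gave 1 proteasome probe set that passed, Psmb6, or 2.38% against 1.17% of all probe sets and 0.51% for higher values only. With no adjustment 3 of the 42 had a p under 0.05, against 15.6% of all. The median was 0.17, beside 0.01 for all, and 31 of 42 lay above 0, against 3815 of all 7453, among them 7 of 7 alpha ring and 7 of 7 ATPase probe sets. Without the ICR control array the median was 0.05, beside 0.04 for all, and without the ICR smoked array 0.34, beside -0.0048 for all. Leaving out the control or the smoked array of DBA gave 0.10 and 0.24. Without scaling it was -0.72, beside -0.89 for all. Psmd12 at 0.57, Psmd11 probe set a at 0.52 and Psmb7 at 0.52 followed Psmb6. The lowest were Psmd3 at -0.81, Psmb5 probe set b at -0.65, Psmb2 at -0.41 and Psme1 at -0.34. Without scaling Psmb7, Psmd12 and Psmd11 probe set a turned below 0. This comparison uses the DBA arrays of the comparison with C57, in which the same roles leaned low, so the leanings are not separate observations.

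**Figure D4:**
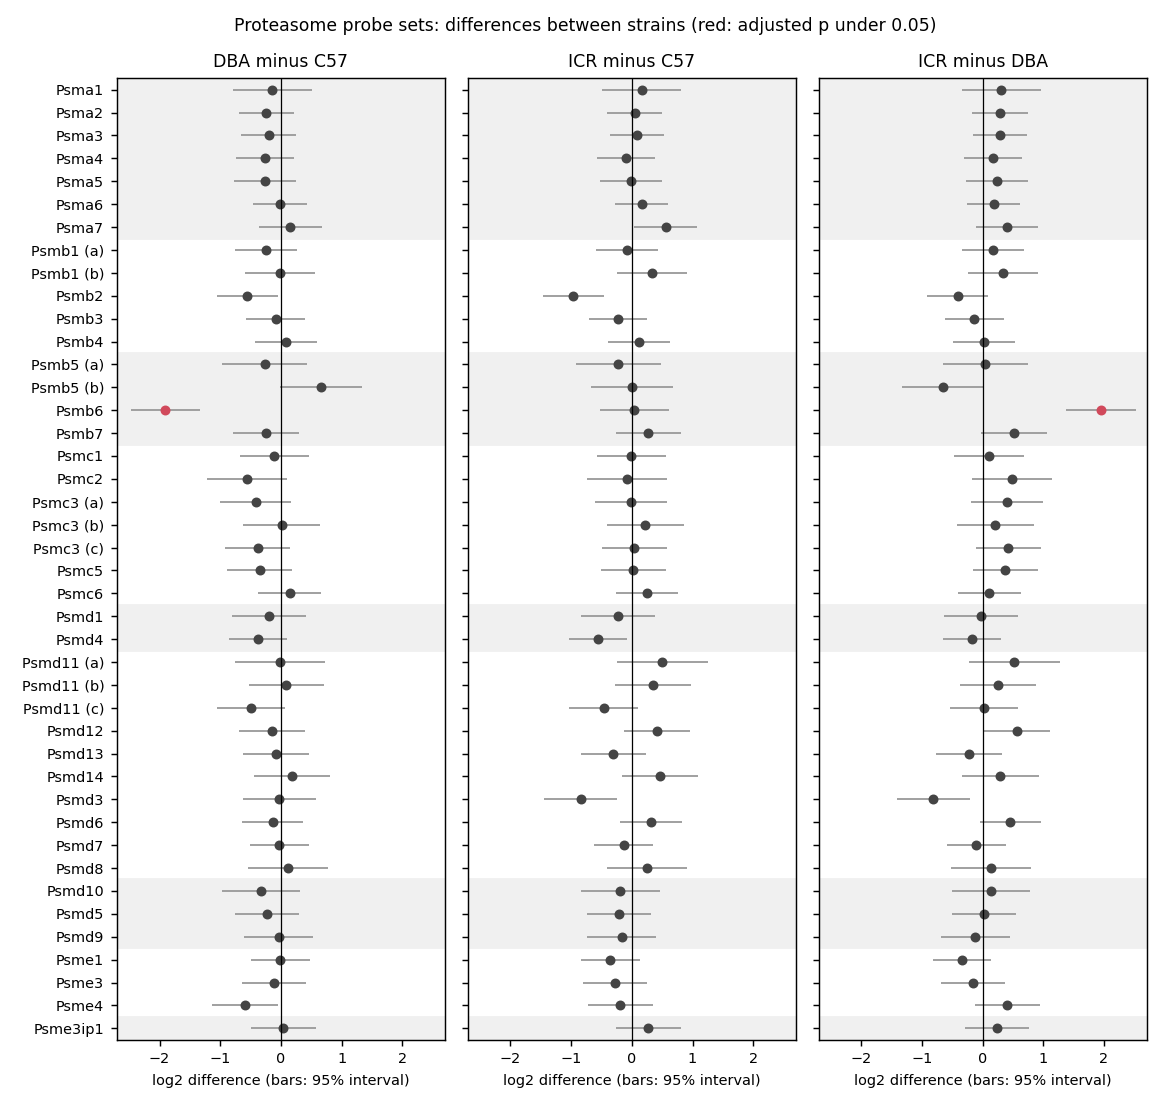
Fitted log2 difference between strains for each of the 42 tested proteasome probe sets (points, with bars for the 95% interval), in panels for DBA minus C57, ICR minus C57 and ICR minus DBA, each comparison using 2 arrays for each strain. Psmb6 (red, adjusted p under 0.05) lies at -1.91 in the first panel, 0.04 in the second and 1.95 in the third, while all other points lie between -1 and 1.

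Immunoproteasome subunits were not among the probe sets described above and are given for comparison. Psmb9, which takes the place of Psmb6 under interferon, had intensities of 322 and 322 in C57, 472 and 528 in DBA and 322 and 157 in ICR. It was higher on the DBA arrays than on the others, with a DBA minus C57 difference of 0.51 that did not pass (limma adjusted p = 0.417). Psmb8, the counterpart of Psmb5, read 598 and 627, 768 and 834, and 506 and 282, with a DBA minus C57 difference of 0.32. Psmb10, the counterpart of Psmb7, read 744 and 677, 633 and 725, and 303 and 257, and was higher on the ICR smoked than on the ICR control array by 0.68 after normalization. Their shared smoke differences were -0.05, 0.01 and 0.16, and none passed. The 7 interferon response genes measured had median differences of 0.02 with smoke and 0.08 between DBA and C57, with 0 passing either test.

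The wider ubiquitin and proteasome pathway, a list of 42 genes written by role, had 26 genes on the array with 40 probe sets, of which 34 were tested. The smoke effect passed in 0 of the 34 (0.0403% of all probe sets), and the responses of C57, DBA and ICR in 0 (0.134%, 0.711% and 0%). DBA against C57 and ICR against C57 also passed in 0 (1.73% and 2.29%). For ICR against DBA 1 passed (1.17% of all), a probe set of Tapbp, which holds class I molecules at the peptide transporter. Its intensities were 276 and 290 in C57, 555 and 529 in DBA and 178 and 72.0 in ICR, and ICR was lower than DBA by a difference of -1.27 (SE 0.24, limma adjusted p = 0.0477). It passed in 9 of 15 alternatives, with an adjusted p from 0.0115 to 0.175, and the other Tapbp probe sets had differences of -0.18 and -0.23.

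The transcription factor of proteasome genes, Nfe2l1, was read by 2 tested probe sets that differed in ICR. One had intensities of 106 and 163 in C57, 220.3 and 342 in DBA and 145 and 29.6 in ICR, a smoked minus control difference of -1.21 in ICR. The other had a difference of 0.34 there and a shared smoke difference of 0.16. Rad23b, a shuttle that brings ubiquitinated proteins to the proteasome, also had 1 probe set beyond 2-fold in ICR, at 1.07, with the other at 0.20. Nfe2l2 had a shared smoke difference of 0.0068 and values of 0.01, 0.37 and -0.35 within C57, DBA and ICR. None of these passed a test.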

How the data were processed

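Lung RNA of 6 samples was measured on Affymetrix arrays. Per the labels' protocols, Trizol was used for extraction, and biotin-labelled cRNA was made by transcription from a T7 promoter on an oligo(dT) primer. The deposited intensity is linear, from 0.0305 to 10579, with 1 value for each probe set. The authors' software, summary method and scaling are not named in the sources used here.

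Array medians differed by up to 1.45 on the log2 scale, above a limit of 0.1 for using values unscaled. A constant of 8.05 (the 20th percentile over all values) was therefore added, log2 taken and the arrays quantile normalized. A difference on this scale understates the change of faint probe sets. After removal of 66 control probe sets, those whose mean exceeded the 40th percentile were tested, 7453 in number. Gene symbols come from the platform annotation, in which 10855 probe sets have 1 symbol, 396 several and 1237 none, and all 50 proteasome probe sets matched RefSeq.

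Smoke and strain differences were fitted together in limma 3.58.1 under R 4.3.3 (lmFit, then eBayes with trend). Strain was a block, and 2 residual degrees of freedom remained. A strain's own response was an extra smoke term with 1 residual degree of freedom, in which the lone pair is taken to vary as the others do. All p-values are 2-sided and were adjusted by the Benjamini-Hochberg method across all 7453 tested, and probe sets are said to have passed at an adjusted p below 0.05. Intervals are 95% intervals of the same fit. Within a strain there was no test. Tests were tried on simulated data with 100 of 7453 probe sets changed at each size, where 40% of 2-fold and 100% of 4-fold differences between DBA and C57 were recovered with 13 calls on unchanged probe sets. The labels do not say if 1 mouse or several went onto an array, so p-values measure the spread between these arrays.

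The genes and lists were chosen with earlier results of these data known. Array values are given for catalytic subunits, activators, probe sets that passed, the 5 highest and 5 lowest by smoke, the 4 highest and 4 lowest in each strain comparison, the 3 largest in each strain's response, and genes whose probe sets differ in sign. Alternatives were the added constant, the filter, the scaling, the variance prior, the model terms, the fold threshold and single arrays or pairs left out. Figures were drawn with matplotlib 3.10.9 under Python 3.11.15.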

Additional observations from a re-analysis of the deposited data

How the results depend on the processing

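There were 22 alternative settings, and each value of a named probe set was recomputed in 7 to 15 of them. The recomputed values kept their direction and their side of the threshold in 526 cases. They were reversed in 18 and crossed the threshold in the others. These counts are totals over 44 results. Most of those results had not passed in the main fit, so few could lose a call. The smoke fit is paired by strain, and without that block 0 proteasome probe sets and 0 of all probe sets passed for smoke, against 0 and 3 with it. By replicate number no paired analysis was possible because each group has a single array numbered 1. The alternatives for the other pathway genes were added after the data were seen. Without scaling between arrays, 0 proteasome probe sets passed for DBA against C57 and 0 for ICR against DBA, 15 passed for the ICR response (35.7%, against 24% of all probe sets), and 28 differed 2-fold within ICR (66.7%, against 39.8% of all). The medians of the proteasome probe sets were then -0.24 for smoke, -0.01 for DBA against C57, -0.78 for ICR against C57, -0.72 for ICR against DBA, 0.38, 0.92 and -1.29 for the responses of C57, DBA and ICR, and 0.34 within DBA and -1.17 within ICR, beside medians over all probe sets of -0.21, 0.14, -0.73, -0.89, 0.24, 0.76, -0.99, 0.31 and -0.87 in the same order. Among the probe sets of the other pathway genes, 2 then passed for ICR against DBA and 10 for the ICR response, against 261 and 1787 of all 7453. Reversed without scaling were Psma7 (-0.24), Psmd11 probe set a (-0.071), Psmd12 (-0.36) and Psmd14 (-0.30) in ICR against C57, Psmb7 (-0.42), Psmd11 probe set a (-0.39) and Psmd12 (-0.37) in ICR against DBA, and Psmd11 probe set c (-0.060), Psmd12 (-0.052) and Psme3ip1 (-0.075) with smoke. Scaling to a common median gave medians of -0.34 for DBA minus C57 and 0.29 for ICR minus DBA (-0.18 and 0.08 for all). It reversed Psma7 (-0.078) and Psmc6 (-0.16) in DBA minus C57. It called 1 proteasome probe set for ICR against C57 (163 of all 7453). It called 0 probe sets of other pathway genes for ICR against DBA (71 of all 7453).

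Psmb2 was the 1 probe set that passed for ICR against C57 under median scaling, with no exposure term, and with either DBA array left out, and the count with 1 array left out ranged from 0 to 1. For ICR against DBA it ranged from 0 (without either ICR array) to 1. With 1 pair left out the smoke differences ranged from -0.52 to 0.12 for Psmb5 probe set a, from -0.049 to 0.37 for Psmd11 probe set c and from -0.023 to 0.41 for Psmd3, and each was reversed without the ICR pair. With 1 array left out the DBA minus C57 differences ranged from -0.068 to 0.38 for Psma7, from -0.068 to 0.35 for Psmc6 (both reversed without the C57 control array) and from -0.062 to 0.42 for Psmd14 (reversed without the DBA smoked array). A threshold of 1.5-fold gave 1 within DBA and 9 within ICR, and a smaller added constant (5th percentile) 1 within ICR at 2-fold. With a filter at the 60th percentile 1 other pathway probe set passed for DBA against C57 and 1 for ICR against C57. These stand against 125 and 160 of all 4969. For ICR against DBA 0 passed with no filter (38 of all 12422) and 0 without a mean trend (63 of all 7453). The cause of these changes was not tested. With 1 array in each group and 3 pairs, the number of arrays limits every value, and the ICR smoked array, with a median intensity of 25.9, leaves the faint probe sets closest to background.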
